A study of Drosophila melanogaster with 18 samples.

Results

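The small nucleolar RNAs (snoRNAs) and small Cajal body RNAs (scaRNAs) were taken as every row of the count table whose FlyBase symbol starts with snoRNA: or scaRNA:, which gave 258 genes of 17753. Of these, 243 are named snoRNA and 15 scaRNA. By name, 112 carry Psi and belong to the box H/ACA class, 82 carry Me and belong to the box C/D class, and 64 carry neither mark. Counts were found for 251 of the 258, and 141 had enough counts to be tested. All libraries were made from DL1 cells, a cultured Drosophila melanogaster line, as strand-specific total RNA libraries depleted of rRNA. The 3 kinds of cell were parental DL1 cells and puromycin-selected DL1 populations with a stable transgene for FLAG-tagged IntS6 or for FLAG-tagged IntS12, each driven by MtnA, a promoter that copper induces. Each kind was grown for 3 d, either without copper or with 500 µM copper sulfate in the last 24 h, with 3 libraries (A, B and C) per group. Parental cells took copper too, and a transgene line is 1 selected population, so an effect of the transgene cannot be told apart from other properties of that population.

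Box H/ACA RNAs base-pair with a target RNA and direct dyskerin, encoded by Nop60B in the fly, to turn a uridine into pseudouridine. Box C/D RNAs do the same for fibrillarin, which adds a methyl group to the ribose. Most of them act on rRNA in the nucleolus, whereas scaRNAs act on spliceosomal snRNAs in Cajal bodies. U3 is a box C/D RNA that guides no modification and is needed for the cleavages that release 18S rRNA. Most fly snoRNAs are cut and trimmed out of introns after splicing, and a smaller number have transcription units of their own. IntS6 and IntS12 are subunits of Integrator, a complex that binds RNA polymerase II and cleaves nascent transcripts, including those of snRNAs.

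Library totals ran from 13217764 to 18214756 counts, of which rRNA genes held 70.2% to 73.4% and other genes 3.69 to 4.94 M counts. The snoRNAs and scaRNAs together held 1.26% to 1.6% of the counts outside rRNA genes. The transgenes served as a check of the labels. With copper, IntS6 stood at 2370 ± 174 CPM (counts per M counts of the scaled library; SD, n = 3) in its line against 36.3 ± 1.45 in parental cells, and IntS12 at 92.9 ± 3.92 against 3.62 ± 0.317. IntS6 was already at 71.4 ± 3.58 CPM in its line without copper, against 28.0 ± 1.51 in parental cells. Of 9 plasmatocyte marker genes 8 had a mean above 1 CPM, while 0 of 4 crystal cell and 0 of 3 muscle markers did over all libraries. Above that level were also 2 of 4 germ line, 1 of 3 neuron and 1 of 3 lamellocyte markers. In parental cells without copper the germ line markers aub and piwi stood at 32.6 and 6.33 CPM, and the neuron marker elav at 17.8. Some markers moved with the groups: under copper the plasmatocyte marker Hml stood at 33.2 CPM in the IntS6 line against 2.81 in parental cells. In that comparison 3 of 9 plasmatocyte markers were called higher and 0 lower, where 609 of all 8174 genes tested were called higher and 119 lower. The summed crystal cell markers stood at 2.382 to 3.024 CPM in the IntS6 line with copper against at most 1.223 in the other groups. Most of that sum was peb, at 2.2 CPM in the IntS6 line with copper and 0.426 in parental cells with copper. The other crystal cell markers, lz, PPO2 and PPO1, stood at 0.469, 0.0665 and 0.038 CPM in the IntS6 line with copper. With copper in parental cells the muscle marker Mlc2 rose 4.24-fold, from 0.242 to 1.04 CPM. There piwi rose 3.69-fold, to 23.3 CPM, and aub fell 2.0-fold, to 16.4 CPM. The summed level of 3 lamellocyte markers, 1 of which exceeded 1 CPM, ran from 3.125 to 6.154 CPM without copper and from 6.222 to 11.06 with it. That of the 9 plasmatocyte markers lay between 387 and 505 CPM without copper and between 307.8 and 350.4 with it in parental cells, and between 432.6 and 519.3 and between 320 and 373.7 in the IntS12 line, without overlap. In the IntS6 line the ranges, 455.1 to 497.7 and 403.8 to 515.1, overlapped. Ppn dominated that sum, at 303 CPM without and 171 with copper in parental cells. Counted singly, 4 plasmatocyte markers rose and 2 fell in parental cells, 5 and 2 in the IntS6 line and 3 and 2 in the IntS12 line. Of all genes tested, 19.3%, 23.2% and 19.2% were called higher and 19.4%, 19.3% and 17.6% lower in the same order. The part of these markers in the results for copper or the lines was not tested.

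By position the RNAs were mostly intronic. The BDGP6.54 annotation placed 226 within an intron of a gene on the same strand, 15 within an exon, 3 in a stretch that is exon in part, and 14 in no host. The hosts were 91 genes, 36 of which held more than 1 member. Box H/ACA RNAs lay in introns of protein-coding genes with few exceptions: 105 of 112 had a protein-coding host, 2 a noncoding host and 5 none. Box C/D RNAs divided between 44 with protein-coding hosts and 36 with noncoding hosts, 30 of them in Uhg genes, noncoding genes known mainly as carriers of snoRNAs. The largest clusters were 17 in Arpc2, which encodes a subunit of the Arp2/3 actin complex, 16 in Uhg1, 15 in dom and 14 in RpS5a, which encodes a protein of the small ribosomal subunit. Near-identical copies were common: 44 families of like name covered 135 members, 74 of them tested, and counts of single copies are uncertain because reads may have been shared among them.

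Box H/ACA RNAs were measured at higher levels than box C/D RNAs. Mean level over the 18 libraries, scaled to length as CPM per kb, had a median of 19.2 over 112 box H/ACA RNAs (quartiles 6.85 and 73.6) and of 1.89 over 82 box C/D RNAs (0.609 and 4.82). The RNAs with neither mark had a median of 3.55. In each library, summed box H/ACA RNAs reached 2799 to 3375 CPM, and summed box C/D RNAs 70.93 to 80.68 CPM, so the 2 ranges lay far apart. Of the summed level over all members 78.5% was box H/ACA, 1.91% box C/D and 19.6% unmarked. These classes follow the names alone, and the unmarked share holds U3, itself a box C/D RNA. Summed U3 in parental cells without copper was 209.4 ± 27.3 CPM, against 74.21 ± 2.23 for all RNAs named as box C/D. The RNAs named Or-aca and Or-CD were counted as unmarked too. A mean of at least 1 CPM was reached by 82 box H/ACA RNAs and 6 box C/D RNAs. All 112 box H/ACA RNAs had counts, whereas 5 of 82 box C/D RNAs had none in any library.

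Annotated length moved with level and with class. Box H/ACA RNAs had a median length of 140 nt (124 to 268) and box C/D RNAs of 80 nt (46 to 316). Of members under 100 nt 19 of 98 (19.4%) could be tested, and of those of 130 nt or more 118 of 143 (82.5%). Across the 251 members with counts, length and CPM per kb had a Spearman correlation of 0.592, given as a description since all points share the same libraries. Within the box C/D class, the 15 RNAs of 100 nt or more had a median of 1.62 CPM per kb and the 67 shorter ones 2.09. In the unmarked class the order was the other way, with a median of 13.0 over 33 RNAs of 100 nt or more and of 1.64 over the 31 shorter ones. The RNAs of 100 nt or more had a median length of 113 nt in the box C/D class and 151 nt in the unmarked class. Most of those in the box C/D class thus lay below 130 nt. The labels give no fragment size range, and the part of length in the class difference was not tested.

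**Figure D1:**
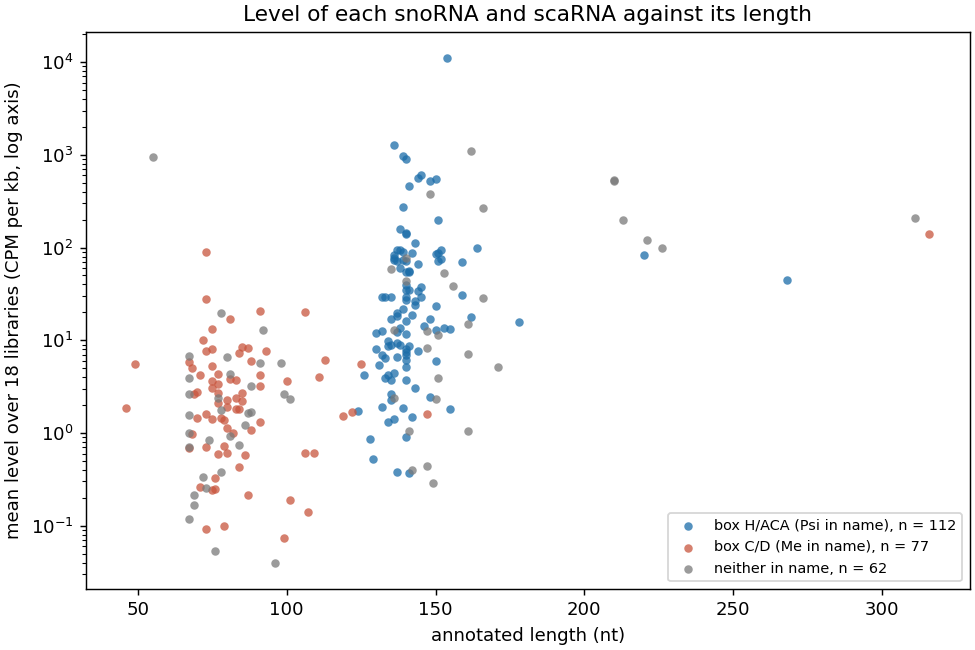
Mean level over 18 libraries (CPM per kb, log axis) against annotated length in nucleotides for the 251 snoRNAs and scaRNAs with counts, 1 point each, coloured by the class given in the name. Box H/ACA RNAs gather near 140 nt with a median of 19.2 CPM per kb, box C/D RNAs near 80 nt with a median of 1.89, and Psi18S-176 stands at the top.

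A few RNAs held most of the signal. Psi18S-176, a guide named for 18S pseudouridylation at chromosome 2R (23839911 to 23840064, minus strand) with no annotated host, averaged 1720 CPM and made up 41.5% to 46.4% of the summed level in each library. The 5 most abundant members together held 59.1%. The next box H/ACA RNAs by CPM per kb were Psi18S-1377d at 1290 in an intron of RpS7, Psi18S-110 at 964 in Sf3b3, Psi18S-1820 at 893 in Nop60B, and Psi28S-1180 at 604 in tou. The host of Psi18S-1820 thus encodes the pseudouridine synthase itself. Among box C/D RNAs the order was MeU5-C46, a U5 snRNA guide of 316 nt, at 141 CPM per kb, then Me28S-A1322 at 90.2 in an intron of the translation elongation factor gene eEF1alpha1, Me28S-A2113 at 27.8 in RpL30, Me28S-G2703a at 20.5 in Uhg5 and Me18S-C1968 at 20.4 in Swim. The unmarked RNAs were led by Or-aca4 at 1090, snoRNA:185 at 956 and the U3 copy U3:54Ab at 533.

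RNAs from the same host differed widely in level. RpS7 held 7 box H/ACA RNAs from 7.68 CPM per kb (Psi28S-2149) to 1290 (Psi18S-1377d). The 8 in kra ran from 7.53 (Psi28S-2442a) to 559 (Psi28S-2442b), a pair of copies by name. The 7 in Nop60B ran from 1.81 (Me28S-G1083c) to 893 (Psi18S-1820), whereas the 17 in Arpc2 all stayed between 0.375 and 12.2. In 39 of 125 tested intronic pairs the RNA stood above its host per kb: 21 of 91 box H/ACA RNAs, 4 of 14 box C/D RNAs and 14 of 20 unmarked ones.

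The effect of copper was tested in each kind of cell with edgeR's quasi-likelihood test over 8174 genes, with p-values adjusted by Benjamini-Hochberg, and a call needed an adjusted p below 0.05. In parental cells 7 of 141 tested RNAs were called, 5 higher and 2 lower, where 38.6% of all genes tested were called, 19.3% higher and 19.4% lower. In bulk samples fewer cells of a kind and less RNA per cell cannot be told apart. In the IntS6 line 11 were called, 4 higher and 7 lower, against 42.6% of all genes (23.2% higher and 19.3% lower). In the IntS12 line 7 were called, all higher, against 36.8% of all genes and 19.2% called higher. Single RNAs were measured less exactly than the average gene: the median standard error of their log2 fold changes was 0.20 to 0.21 against 0.13 over all genes. Among the 44 RNAs of at least 10 CPM, where the median standard error was 0.12, 3, 7 and 5 were called. The median log2 fold change over the 141 was -0.05, -0.08 and -0.08 in the order above, against 0.00, -0.01 and 0.01 over all genes tested. Leaving out 1 library at a time, it ran from -0.105 (without parental library C) to 0.0228 (without parental library C with copper), from -0.123 to -0.0364, and from -0.122 to 0.00136 (without IntS12 library B), so its sign was not fixed in parental cells or the IntS12 line. Altogether 17 RNAs were called in any copper comparison, 4 of them in all 3 and 13 in 1. The 4 were Me28S-A2113 and the 3 copies of U3.

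Me28S-A2113, a box C/D guide of 73 nt named for 28S methylation (chromosome 2L, 19008611 to 19008683, minus strand), had the largest copper response of any tested member. Without copper it was counted at 0.9197, 1.136 and 0.9434 CPM in parental cells, 0.9395, 0.5989 and 1.087 in the IntS6 line, and 0.9028, 1.2 and 0.8488 in the IntS12 line. With copper the values were 3.411, 4.02 and 3.598 in parental cells, 1.997, 3.276 and 2.382 in the IntS6 line, and 3.186, 2.98 and 3.046 in the IntS12 line. Every library with copper lay above every library without it. The RNA rose 3.66-fold in parental cells (log2 1.87 ± 0.23 SE, edgeR adjusted p 1.66e-06), 2.88-fold in the IntS6 line (1.53 ± 0.25, 4.27e-05) and 3.11-fold in the IntS12 line (1.64 ± 0.24, 1.22e-05). Its host RpL30, a gene for a protein of the large ribosomal subunit, had a log2 fold change of -0.19 in parental cells (edgeR adjusted p 0.0234) and of -0.15 in each line (0.0713 and 0.0765). In parental cells, where both passed the test, the RNA rose and its host fell.

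U3 has 3 copies, none with a host: U3:54Aa (2R, 17143521 to 17143730, minus strand), U3:54Ab (2R, 17145617 to 17145826, plus strand) and U3:9B (X, 10348125 to 10348337, plus strand). U3:54Aa stood at 86.32, 96.41 and 73.66 CPM in parental cells, at 68.87, 87.37 and 78.4 in the IntS6 line, and at 76.96, 77.05 and 83.04 in the IntS12 line. With copper it stood at 123.7, 161.8 and 154.3, at 113.3, 137.2 and 130.9, and at 138.5, 138.1 and 162.8 in the same order. Again the 9 libraries with copper lay above the 9 without. U3:54Aa rose by a log2 fold change of 0.78 ± 0.11, 0.70 ± 0.11 and 0.89 ± 0.11 (edgeR adjusted p 7.53e-06, 2.12e-05 and 1.46e-06), and U3:54Ab by 0.77 ± 0.10, 0.73 ± 0.10 and 0.86 ± 0.10. U3:9B rose less, by 0.40 ± 0.12, 0.32 ± 0.12 and 0.41 ± 0.12 (edgeR adjusted p 0.013, 0.0396 and 0.0123). In parental cells its libraries overlapped, at 37.71, 45.3 and 32.88 CPM without copper and 44.06, 62.76 and 45.58 with it, but each library with copper lay above its same-letter library without it. They did not overlap within the lines, where the highest library without copper was at 38.73 (IntS6) and 37.91 (IntS12) and the lowest with it at 40.85 and 43.48.

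Reads may have been shared among the U3 copies, whose counts were not whole in 38.9% to 61.1% of the libraries, so the copies were also summed. Summed U3 stood at 212.9, 234.7 and 180.6 CPM in parental cells and at 294.1, 386.6 and 350.9 with copper. For the IntS6 line it went from 177, 215.2 and 191.9 to 277.4, 322.6 and 311.8, and in the IntS12 line from 192.8, 192.3 and 203.2 to 327.1, 322.9 and 374.2. Summed U3 rose 1.64-fold, 1.56-fold and 1.74-fold (edgeR adjusted p 7.23e-06, 1.96e-05 and 1.88e-06). The difference of the copper response from that of parental cells was -0.07 ± 0.14 in the IntS6 line and 0.08 ± 0.14 in the IntS12 line on the log2 scale (edgeR adjusted p 0.913 and 1). The rest of the unmarked class stayed close to its level: without U3 its summed level was 529 ± 70.7 CPM in parental cells and 534.6 ± 61.2 with copper (SD, n = 3).

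**Figure D2:**
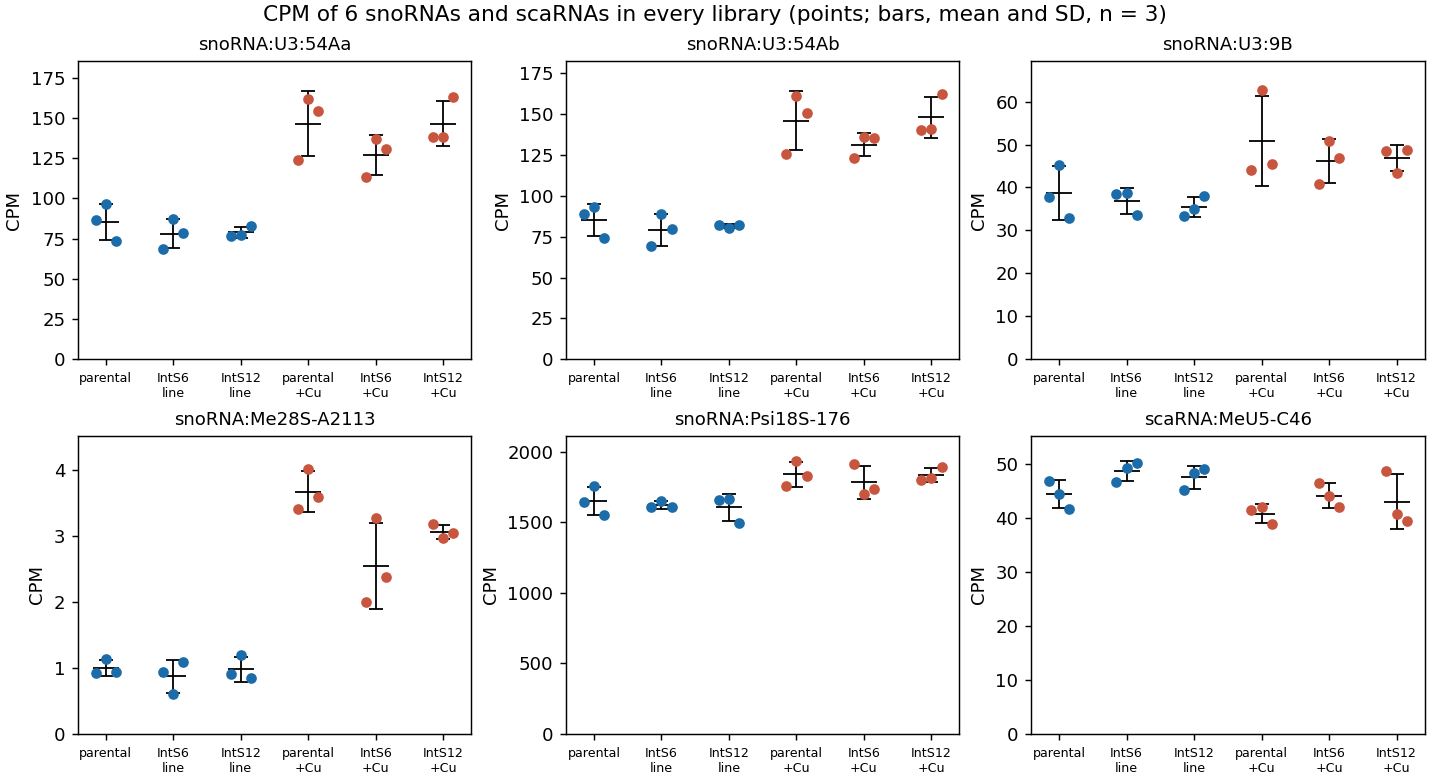
CPM in every library (points) of the 3 U3 copies, Me28S-A2113, Psi18S-176 and MeU5-C46, by group, without copper in blue and with copper in red; bars give the mean and SD of 3 libraries, and each axis starts at 0. For U3:54Aa, U3:54Ab and Me28S-A2113 all 9 libraries with copper lie above all 9 without it, and for U3:9B the libraries of parental cells overlap.

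Psi18S-176, the most abundant member, had small fold changes. It stood at 1646, 1756 and 1555 CPM in parental cells and at 1759, 1937 and 1828 with copper. The IntS6 line gave 1610, 1653 and 1607, then 1914, 1700 and 1738 with copper, and in the IntS12 line 1662, 1666 and 1498, then 1800, 1812 and 1896. Within each kind of cell the libraries with copper lay above those without. The log2 fold change was 0.16 ± 0.06, 0.14 ± 0.06 and 0.19 ± 0.06, and it passed the test in the IntS12 line (edgeR adjusted p 0.0601, 0.0967 and 0.0238). The value in parental cells passes when same-letter libraries are paired in a replicate block (edgeR adjusted p 0.0405).

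The other box H/ACA calls were small or rested on low counts, and none was shared between kinds of cell. In parental cells Psi18S-1275, in an intron of RpS29, fell by 1.21 ± 0.41 on the log2 scale (edgeR adjusted p 0.0243) from 0.9197, 0.7572 and 0.6531 CPM to 0.5686, 0.2792 and 0.1499. It lost the call in 6 of 12 alternative settings, and it was too low to test in a further one, with the groups compared alone. Under copper 7 box H/ACA RNAs of the IntS6 line fell, against 19.3% of all genes called lower. The largest change was that of Psi18S-640f in Arpc2, by 1.13 ± 0.33 (edgeR adjusted p 0.00763), from 1.012, 1.065 and 0.9511 CPM to 0.5706, 0.4273 and 0.3502. Psi28S-3378, one of 15 RNAs in dom, fell by 0.40 ± 0.12 (0.00952), from 14.02, 13.97 and 12.5 CPM to 11.41, 8.973 and 10.23. In both, the groups did not overlap.

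The remaining 5 in the IntS6 line fell by 0.50 (Psi28S-3571, in kra), 0.44 (Psi28S-3327a, in RpS4), 0.32 (Psi18S-1389a, in dom), 0.29 (Psi28S-3405d, in Hrb98DE) and 0.24 (Psi28S-1135f, in RpS5a) on the log2 scale, with edgeR adjusted p from 0.0312 to 0.046. DESeq2 gave 5 calls in this line in place of 11, and 6 of the 7 RNAs that fell were not among them. The difference between the copper response of the IntS6 line and that of parental cells passed the test for 0 of 141 RNAs, where 1.16% of all genes were called, with 6 at an unadjusted p under 0.05. In the IntS12 line it passed for 0 too, where 0.0122% of all genes were called, with 1 at an unadjusted p under 0.05, and DESeq2 called 0 in both. In the IntS12 line Psi28S-2566, in CG3902, rose by 0.76 ± 0.29 (edgeR adjusted p 0.0442). The rise rested on library A, at 25.18 CPM beside 8.805 and 13.67 in B and C, against 9.479, 7.532 and 11.32 without copper. Without that library the log2 fold change was 0.25.

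Box C/D calls beside Me28S-A2113 were MeU2-48 in parental cells and Me18S-C1968 in the IntS12 line. MeU2-48, a U2 snRNA guide in an intron of hfp, rose by 0.97 ± 0.38 (edgeR adjusted p 0.0497) from 0.3285, 0.5679 and 0.5806 CPM to 1.279, 0.8934 and 0.7497. It kept the call in 2 of 13 alternative settings, and with the replicate block the adjusted p was 0.0562. Me18S-C1968 rose by 0.74 ± 0.26 (edgeR adjusted p 0.026) from 1.354, 1.133 and 1.627 CPM to 1.961, 2.032 and 2.91, while its host Swim fell by 0.58 (0.0102). In parental cells Me18S-C1968 stood at 2.431, 2.524 and 2.322 CPM and had a log2 fold change of -0.05, and the difference between the 2 responses, 0.80 ± 0.35, did not pass the test (edgeR adjusted p 0.999). With the replicate block, Me28S-A771 also passed in parental cells, at a log2 fold change of 1.37 (edgeR adjusted p 0.0483), against 1.35 and 0.0514 without it. Copies were also summed by name, which gave 32 families with enough counts to test, and besides U3 and Psi18S-1389, of which a copy was called singly in the same comparison, sums of 4 families passed with copper. Summed Or-CD11, which carries neither mark and whose 3 copies were each too low to test, stood at 0.2903 ± 0.0379 CPM in parental cells and 0.8601 ± 0.237 with copper, a rise of 1.52 ± 0.45 on the log2 scale (edgeR adjusted p 0.0111), with 1.47 and 1.27 in the IntS6 and IntS12 lines (0.0211 and 0.038). The sum of the 2 copies of Me28S-U2134, in RpL13A, rose by 0.79 in the IntS6 line and 0.97 in the IntS12 line (edgeR adjusted p 0.0284 and 0.00823), and had a log2 fold change of 0.67 in parental cells (edgeR adjusted p 0.058). That of Me28S-C2645, in Uhg3, rose by 1.076 in the IntS6 line (edgeR adjusted p 0.0479). The sum of the 7 copies of Psi18S-640 fell by 0.50 in the IntS12 line (edgeR adjusted p 0.036).

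Beside MeU2-48, 4 of the 15 scaRNAs were tested. MeU5-C46, the most abundant, stood at 46.84, 44.42 and 41.66 CPM in parental cells and 41.43, 41.99 and 38.76 with copper, and its log2 fold change was -0.12, -0.14 and -0.14 in the 3 kinds of cell (± 0.08 each, edgeR adjusted p 0.236, 0.156 and 0.158). The guides of U1 and U2 snRNA PsiU1-6, PsiU2-38.40.42 and PsiU2-55 had log2 fold changes from -0.37 to 0.03, none of which passed. The remaining unmarked call was snoRNA:lola-a, in an intron of the transcription factor gene lola, which fell by 0.54 ± 0.16 in parental cells (edgeR adjusted p 0.0124), from 5.584, 6.688 and 5.515 CPM to 4.122, 4.355 and 3.748. Its host fell by 0.44 (2.62e-05).

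**Figure D3:**
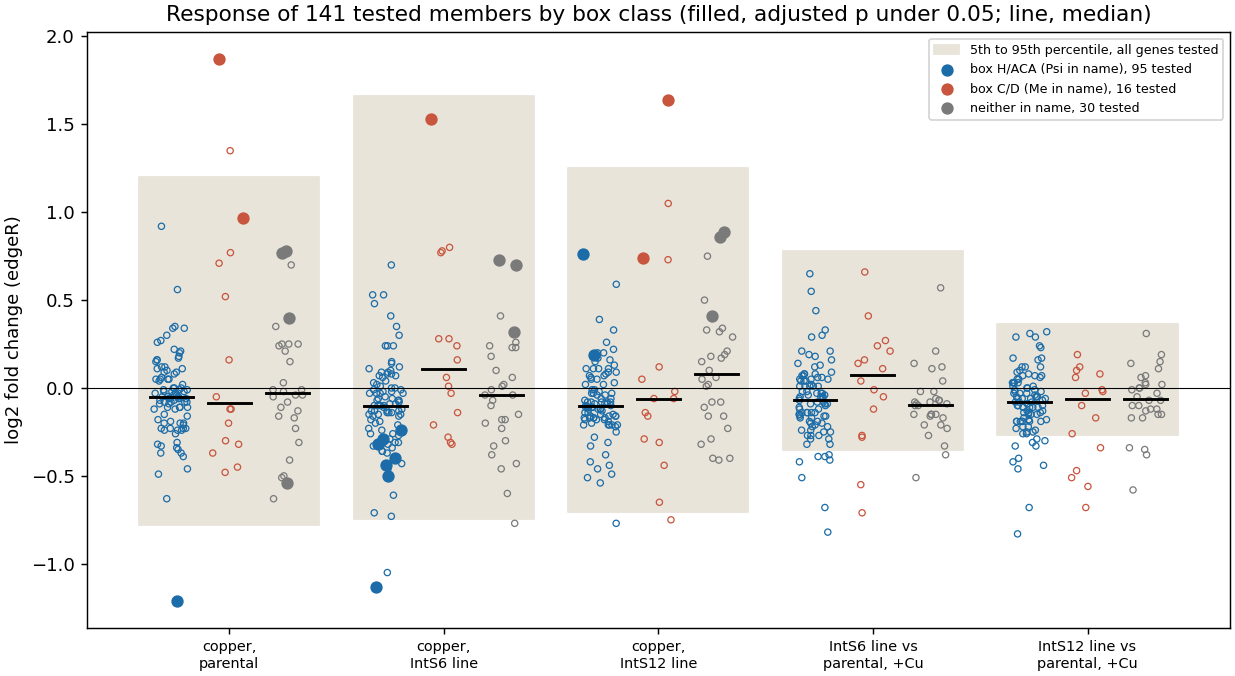
Log2 fold changes (edgeR) of the 141 tested RNAs in 5 comparisons, by box class; filled points have an adjusted p under 0.05, black lines are class medians, and grey boxes run from the 5th to the 95th percentile of all 8174 genes tested. Filled points number 7, 11 and 7 in the copper comparisons, with Me28S-A2113 the highest in each, and 0 in the comparisons of the transgene lines with parental cells.

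Box H/ACA and box C/D RNAs were also compared as classes, and the sign of the difference in their copper response depended on how the RNAs were weighted. The mean log2 CPM of the 95 tested box H/ACA RNAs minus that of the 16 tested box C/D RNAs, Me28S-A2113 included, went from 2.01 to 1.76 in parental cells, a change of -0.255 beside a pooled SD between libraries of 0.138. It went from 1.98 to 1.68 in the IntS6 line (-0.295, SD 0.0762) and from 1.98 to 1.80 in the IntS12 line (-0.176, SD 0.0516). Over libraries it ran from 1.814 to 2.136 without copper and from 1.608 to 1.841 with it. Parental library C was the only library without copper that fell inside the range of those with copper. On summed CPM, which the abundant RNAs dominate, the change was positive, at 0.0907, 0.0245 and 0.12. Leaving out Psi18S-176, mean summed box H/ACA CPM was lower with copper, at 1427 to 1383, 1417 to 1323 and 1390 to 1324. The SDs between libraries were 63.7 to 166. Mean summed box C/D CPM without MeU5-C46 was higher with copper, at 29.91 to 32.36, 29.07 to 33.91 and 28.61 to 30.9, with SDs of 0.678 to 4.02. That sum includes Me28S-A2113. In parental cells and the IntS12 line the rise of this RNA alone was about as large as that of the sum, and in the IntS6 line it was smaller. The class values were not computed without Me28S-A2113. No p is given, since RNAs of a class are not replicates. Class medians of the log2 fold change were -0.05, -0.10 and -0.10 for box H/ACA and -0.09, 0.11 and -0.06 for box C/D, so the box C/D median was the lower in parental cells and the higher in both lines.

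The transgene lines were compared with parental cells under copper to ask whether more IntS6 or IntS12 changed these RNAs. With IntS6 0 of 141 RNAs passed, where 8.91% of all genes were called. At an unadjusted p under 0.05 there were 6, and DESeq2 called 0. The median log2 fold change was -0.08 against -0.01 over all genes, and 92 of 141 values lay below 0, as did 4201 of 8174 over all genes. In the IntS12 line 0 passed, where 0.0245% of all genes were called, with 1 at an unadjusted p under 0.05 and 0 by DESeq2. There the median was -0.07 against 0.01, with 99 of 141 values below 0 and 3909 of 8174 over all genes. The 2 comparisons share the parental libraries. Leaving out 1 library at a time, the members' median ran from -0.127 to -0.0447 with IntS6 and from -0.125 to -0.026 with IntS12. The data bounded the size of any difference loosely for most members: the 95% interval of the log2 fold change lay within ± 1 for 117 of 141 in each line. It lay within ± 0.5 for 52 of 141 in the IntS6 line and 55 in the IntS12 line, and for 1 of 16 box C/D RNAs in each. Of the 44 RNAs of at least 10 CPM it lay within ± 0.5 for 35 in the IntS6 line and 38 in the IntS12 line.

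The RNA nearest to the threshold was snoRNA:CG32479-b, in an intron of Usp10. It stood at 22.42, 22.5 and 23.47 CPM in the IntS6 line with copper and at 29.56, 34.23 and 24.96 in parental cells with copper, so the groups did not overlap. The log2 fold change was -0.38 ± 0.12 (edgeR adjusted p 0.0579). With the replicate block it was -0.375 at an adjusted p of 0.0184. The host Usp10 fell by 0.23 in the same comparison (edgeR adjusted p 0.00392). Next came Me28S-A2113 at -0.55 ± 0.20 (edgeR adjusted p 0.0966), Or-CD2 at -0.51 ± 0.19 (0.112) and Psi28S-3327a at -0.42 ± 0.16 (0.114). Without IntS6 library B with copper, Me28S-A2113 reached -0.76 at an adjusted p of 0.0323. Summed U3 was at 303.9 ± 23.6 CPM against 343.9 ± 46.6, a log2 fold change of -0.18 ± 0.10 (edgeR adjusted p 0.31).

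Without copper 0 of 141 passed in either line, where 0.208% of all genes were called in the IntS6 line and 0.0367% in the IntS12 line. At an unadjusted p under 0.05 there were 7 and 4 RNAs, and DESeq2 called 0 in each. The median log2 fold change was -0.03 in the IntS6 line, with 82 of 141 values below 0, and -0.06 in the IntS12 line, with 91 of 141.

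Intronic RNAs and their hosts were set side by side under copper. The 125 tested intronic RNAs with a tested host sat in 51 hosts. In parental cells 21 of these hosts fell and 2 rose, in the IntS6 line 26 fell and 1 rose, and in the IntS12 line 20 fell and 1 rose. Of all genes tested, 19.4%, 19.3% and 17.6% were called lower and 19.3%, 23.2% and 19.2% higher. The called hosts held 38, 44 and 30 tested RNAs, of which 4, 1 and 2 were called themselves, 2, 1 and 0 of them in the direction of the host. Over all 126 tested intronic RNAs, with or without a tested host, 4, 8 and 3 were called. The median log2 fold change was -0.19, -0.19 and -0.15 over the 51 hosts, each taken once, and -0.06, -0.10 and -0.09 over the 125 RNAs. Across the 125 pairs the Pearson correlation was -0.02, 0.08 and -0.01 and the Spearman correlation -0.03, 0.06 and 0.02, given as descriptions because many RNAs share a host and all share libraries. The median standard error of an intronic RNA was 0.21, about the size of the median host change.

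**Figure D4:**
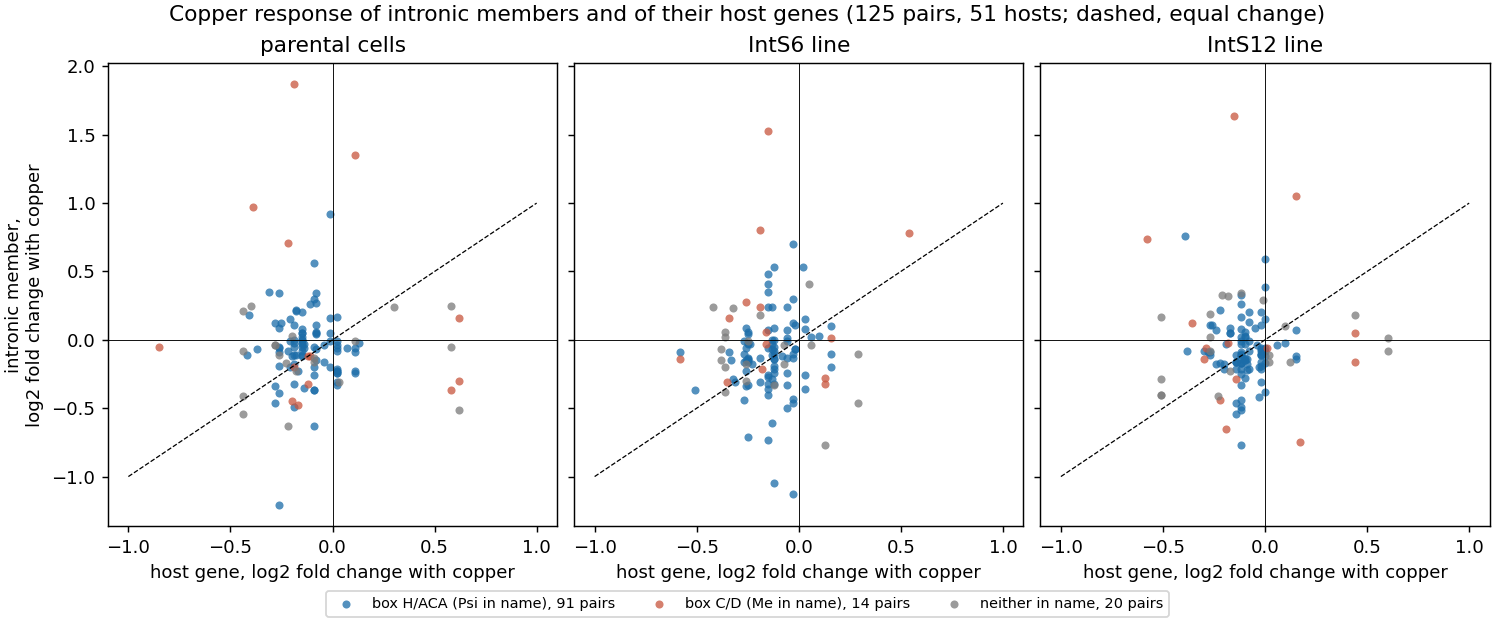
Log2 fold change with copper of 125 intronic snoRNAs and scaRNAs against that of their host genes in the 3 kinds of cell (panels), 1 point per pair, coloured by class; the dashed line marks equal change. Host values lie mostly below 0, with medians over the 51 hosts, each taken once, of -0.19, -0.19 and -0.15. The points show no slope, with Pearson correlations of -0.02, 0.08 and -0.01.

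RNAs with no host were set apart by position. Of the 11 tested, 3 were called higher in parental cells, 3 in the IntS6 line and 4 in the IntS12 line, and 0 were called lower. These shares, 27.3%, 27.3% and 36.4%, stood beside 19.3%, 23.2% and 19.2% of all genes called higher. The called RNAs were the U3 copies and, in the IntS12 line, Psi18S-176. The other 7 ran from -0.60 to 0.25 on the log2 scale and did not pass, Or-aca4 among them at 178.7, 218.3 and 161.7 CPM in parental cells and 186.1, 205 and 160.7 with copper.

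Genes for the proteins of these particles were read against the 38.6%, 42.6% and 36.8% of all genes called with copper. Of 5 tested genes for the box H/ACA particle and its assembly, Nop60B fell with copper in all 3 kinds of cell, by 0.37 ± 0.10, 0.33 ± 0.10 and 0.30 ± 0.10 on the log2 scale (edgeR adjusted p 0.00672, 0.0106 and 0.0242), from 202 ± 17.3 to 157 ± 32.8 CPM in parental cells. CG10055 rose by 0.27 in the IntS6 line, and NHP2 and Gar1, which encode core proteins, were not called in any. Of 9 genes for the box C/D particle and its assembly 2, 2 and 1 fell and 0 rose. Pih1D1, known in yeast and mammals as part of the assembly complex R2TP, fell by 0.34, 0.48 and 0.36. The core genes Fib and Nop56 had log2 fold changes from -0.12 to 0.12. Of 6 Cajal body and nucleolar genes 0 rose and 1 fell in parental cells, 0 rose and 2 fell in the IntS6 line, and 1 rose and 1 fell in the IntS12 line. WDR79, whose product in mammals brings scaRNAs to Cajal bodies, fell by 0.70 ± 0.12, 0.41 ± 0.12 and 0.31 ± 0.12 (edgeR adjusted p 7.72e-05, 0.00777 and 0.0372). Nlp, which encodes a nucleoplasmin-like protein, fell by 0.23 in the IntS6 line (edgeR adjusted p 0.046), and coil, which encodes coilin, rose by 0.36 in the IntS12 line.

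Of 15 tested genes for intron debranching and exonuclease trimming, 0 rose and 2 fell in parental cells, 1 rose and 2 fell in the IntS6 line, and 0 rose and 1 fell in the IntS12 line. The exonuclease gene pcm fell by 0.43 and 0.23 in parental cells and the IntS12 line. The debranching enzyme gene ldbr fell by 0.55 and the exonuclease gene Rat1 by 0.28 in the IntS6 line. The 7 Uhg hosts rose in 3, 2 and 1 cases and fell in 0, 0 and 1. Uhg4 rose by 0.58 in parental cells and 0.60 in the IntS12 line, and Uhg1 by 0.58 in parental cells and 0.54 in the IntS6 line. Of 47 RNAs in Uhg genes 8 were tested. With copper, 0 genes of the 5 lists (both particles, Cajal body and nucleolar, trimming and Uhg) differed between either line and parental cells at the threshold. Of all genes 8.91% were called in the IntS6 line and 0.0245% in the IntS12 line, so few calls were to be had in the latter.

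Other small RNAs were counted in the same libraries. Of 27 tested among 35 snRNA, 7SL, 7SK, RNase P and RNase MRP genes, 7 rose and 1 fell in parental cells with copper, 4 rose and 1 fell in the IntS6 line, and 6 rose and 0 fell in the IntS12 line, with medians of 0.28, 0.12 and 0.20. Of all genes 19.3%, 23.2% and 19.2% were called higher. Copies of the same RNA were counted as separate genes here: in parental cells snRNA:U1:82Eb, U1:95Ca, U1:95Cb, U1:95Cc and U1:21D all rose. Reads may have been shared among such copies. The spliceosomal snRNA:U4:38AB rose by 0.85, 0.75 and 0.77 (edgeR adjusted p 0.000275, 0.000774 and 0.000724). Their summed level ran from 3708 to 4916 CPM without copper and from 4277 to 5746 with it, so the ranges overlapped. U3 moved in the same direction, and the part of RNA recovery or library making in its rise was not tested. RNase MRP RNA, at 470 ± 22.4 CPM in parental cells and 480 ± 17.9 with copper, was not called in any of the copper comparisons. In the IntS6 line with copper, 1 of the 27 differed from parental cells, snRNA:U1:21D, which was lower by a log2 fold change of -0.41 ± 0.10 (edgeR adjusted p 0.00965).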

How the data were processed

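The deposited table holds the authors' counts per gene, which are estimated counts because 13.4% of values were not whole. Trimmomatic 0.39, featureCounts and the builds dm6 and BDGP6 are named in the submitters' processing notes. The aligner, annotation release and strand setting were not given in the sources used here. Symbols matched 17626 of 17753 identifiers and 127 had none. Coordinates, lengths and hosts came from the BDGP6.54 annotation, which may differ from the release that was counted. A host is the gene on the same strand whose span holds the member. Exon bases of another gene were shared on the same strand by 20 members, 4 of them tested, and on the other strand by 7, and by none of the 17 called with copper.

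Counts were rounded and all 18 libraries fitted in 1 edgeR 4.0.16 model (R 4.3.3) with a mean per group (6 in all), TMM scaling and edgeR's own low-count filter, which kept 8174 genes and 141 members. rRNA genes stayed in library sizes. The model had 12 residual degrees of freedom, a prior of 9.62 and a biological coefficient of variation of 8%. P-values were Benjamini-Hochberg adjusted over all genes within each of 9 comparisons. The fit was also run on counts simulated from its own dispersion, which cannot show whether the model suits these data. CPM used TMM-scaled library sizes, and log2 CPM a prior count of 2. Errors of log2 fold changes are standard errors. The other filters, scalings and tests tried, DESeq2 1.42.0 among them, are given in the closing section.

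Members, gene lists and tests were chosen with earlier results of these data known. Named members are up to 8 per direction and comparison with the largest changes among called ones, and those of highest CPM per kb in each class. CG32479-b, Or-CD2, Me28S-A771, Or-CD11, Me28S-U2134, Me28S-C2645, summed Psi18S-640, the scaRNAs and the copies that differ within a host were chosen after their values were seen. Of the listed symbols, CG7637, CG4038, Naf1, Shq1, Nop58, hoip, l(2)35Df, Xrn1 and nos had no match. Matching was by current symbol alone, so these genes may be present under another name, also one in the same list. Lamellocyte markers above 1 CPM numbered 1 of 3, germ line 2 of 4 and neuron 1 of 3.

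No 2 replicates agreed within counting noise, and the labels call them biological replicate sets without naming separate cultures, so p-values measure the spread between these samples. Same-letter libraries deviated together for copper in parental cells (correlations 0.122, 0.114 and 0.278) and for IntS6 against parental cells with copper (0.213, 0.244 and 0.136). Correlations were also positive for copper in the IntS6 line (0.109, 0.0854 and 0.0929) and for that line without copper against parental cells (0.138, 0.0844 and 0.115). The main tests did not pair the letters in any comparison, and the replicate block was run as an alternative setting.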

Additional observations from a re-analysis of the deposited data

How the results depend on the processing

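Members called with copper numbered 7 in parental cells, 11 in the IntS6 line and 7 in the IntS12 line. With no filter on low counts they were 10, 17 and 11, with DESeq2 6, 5 and 6, with library sizes alone 6, 7 and 7, and with the groups compared alone 4, 15 and 8. Leaving out 1 library gave 5 to 11, 5 to 10 and 5 to 8; the 11 came without parental library C with copper, and the 5 in the IntS6 line without library B of either IntS6 group. With the replicate block the counts were 8, 12 and 7. For the IntS6 line against parental cells with copper the count of 0 became 5 with no filter, 1 with the replicate block and 0 to 1 when 1 library was left out, all lower. The other 5 comparisons of lines or responses stayed at 0 in every setting run. U3:54Aa, U3:54Ab and Me28S-A2113 kept their copper calls in all 13 settings in each kind of cell. U3:9B lost its call in 3, 5 and 1 of 13. The class difference was 0.0907, 0.0245 and 0.12 with copper on summed CPM, and -0.0429 for IntS12 against parental cells with copper, where it was 0.043. Adding orphan and U-named members to the classes, chosen after seeing the data, gave -0.267 in the IntS12 line, and -0.192 in the IntS6 line with U3 left out. In the IntS6 line against parental cells with copper, Psi18S-176 turned from -0.05 to 0.004192 with library sizes alone, and U3:9B, at -0.15, ran from -0.241 without parental library A with copper to 0.03246 without parental library B with copper. The causes of these shifts were not tested. Scaling by library size alone moved the median of all genes by less than 0.1 on the log2 scale. Of 258 members 117 were too low to test, 66 of them box C/D, so changes there were not detectable at this depth.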
